A study of Drosophila melanogaster with 2 samples.

Results

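The nuclear genes of oxidative phosphorylation were examined for binding of a tagged homeodomain protein, Ptx1, in Drosophila melanogaster embryos. They were taken by symbol, as the protein-coding genes of Ensembl release 115 on nuclear chromosome arms whose names start with ND-, COX, ATPsyn, UQCR, Cyt-c or Sdh. The rule found 92 of 13968 coding genes. By symbol, 40 of these fall in complex I, 8 in complex II and 11 in complex III. Another 16 fall in complex IV and 15 in complex V, and 2 encode cytochrome c. The 8 of complex II include an assembly factor, Sdhaf3. A gene was called bound when the summit of a reproducible peak lay within 1000 bp of a transcription start site (TSS) of any of its transcripts.

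The flies were of the strain Ptx1-GFP, which carries an insertion that makes Ptx1 as a fusion with enhanced green fluorescent protein (eGFP). Chromatin of whole embryos aged 0 to 24 h, sheared to 200 to 800 bp, was precipitated with an antibody that the description gives as anti-GFP and the antibody field as Ptx1. The 2 samples were biological replicates of 1 group, and no control sample was analysed here. The whole organism was used, so all embryonic cell types are mixed, and strong binding in few cells cannot be told apart from weak binding in many.

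Oxidative phosphorylation passes electrons from NADH and succinate through 4 protein complexes of the mitochondrial inner membrane to oxygen, and the ATP synthase, complex V, uses the proton gradient this builds. Complexes I and II feed electrons in through ubiquinone, complex III hands them to the soluble carrier cytochrome c, and complex IV passes them to oxygen. The nuclear subunit genes are active in most tissues, and many fly subunits also have a duplicate gene used mainly in the testis. Ptx1 belongs to the Pitx group of paired-like homeodomain proteins, which in other species prefer the site TAATCC.

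The sequences at 7 summits are shown because they carry the strongest peaks whose windows held no exon, or a searched motif. They are 101-base windows of dm6, written 5′ to 3′ on the strand of the named gene. The single capital in the middle is the summit base, and the runs of capitals are a match to TAATCC at ND-23, read there on the other strand as GGATTA, and an E-box, CAGCTG, at ATPsynCF6.
Cyt-c-p, chr2L:16720822-16720922, plus strand: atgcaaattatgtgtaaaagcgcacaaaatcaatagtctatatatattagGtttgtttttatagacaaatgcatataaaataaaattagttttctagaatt
Cyt-c-d, chr2L:16716286-16716386, plus strand: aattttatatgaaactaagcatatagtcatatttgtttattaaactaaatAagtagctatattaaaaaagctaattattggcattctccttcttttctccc
ND-ASHI, chrX:6679320-6679420, minus strand: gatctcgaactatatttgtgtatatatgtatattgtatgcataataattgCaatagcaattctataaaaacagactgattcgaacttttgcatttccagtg
ND-51, chr2L:6062833-6062933, minus strand: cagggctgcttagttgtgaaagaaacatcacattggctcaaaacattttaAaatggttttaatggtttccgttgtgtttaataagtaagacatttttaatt
Cyt-c1L, chr3R:29204753-29204853, minus strand: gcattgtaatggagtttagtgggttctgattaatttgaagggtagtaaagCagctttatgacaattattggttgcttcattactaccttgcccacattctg
ND-23, chr3R:15837183-15837283, minus strand: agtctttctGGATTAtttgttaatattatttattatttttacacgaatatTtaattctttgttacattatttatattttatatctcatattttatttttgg
ATPsynCF6, chr3R:23356121-23356221, minus strand: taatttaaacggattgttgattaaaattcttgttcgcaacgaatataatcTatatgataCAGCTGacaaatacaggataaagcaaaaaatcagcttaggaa

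A conservative summit lay near 22 of the 92 genes (23.9%, exact Clopper-Pearson 95% interval 15.6 to 33.9), against 26.7% of all coding genes (3729 of 13968). As a group, these genes were therefore bound about as often as coding genes at large, and the interval covers counting error alone. The other thresholded list of the series called 23 of them, against 28.0% of coding genes. The replicate 1 list called 20 (21.7%), against 23.5% of coding genes, and the replicate 2 list called 21 (22.8%), against 21.9%. Both replicate lists called 19 of the 92, against 2720 of 13968 coding genes (19.5%). At 70 of the 92 genes (76.1%) the full ranked list of the replicate pair, with no threshold, had some peak near a start, against 76.7% of coding genes. Peaks are ranked there by a scaled score of the irreproducible discovery rate (IDR), which estimates the share of peaks at a rank that do not repeat between replicates. It is capped at 1000, and the thresholded lists hold no peak under 830, which corresponds to a rate of 0.01. In a list of 1 replicate alone, the score cannot measure whether a peak repeats between the 2 replicates.

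By complex, bound genes numbered 10 of 40 in complex I (25%), 1 of 8 in complex II (12.5%), 2 of 11 in complex III (18.2%), 4 of 16 in complex IV (25%) and 3 of 15 in complex V (20%). Both cytochrome c genes were bound. Each of these shares has a wide counting interval, such as 12.7 to 41.2% for complex I and 15.8 to 100% for cytochrome c, and each interval includes the share of all coding genes. The 7 conserved core subunits of complex I that the rule finds, which carry its electron transfer centres or their docking surface, included 3 bound genes (42.9%, interval 9.9 to 81.6), and its 27 broad accessory subunits included 7 (25.9%, interval 11.1 to 46.3). Both intervals include the 26.7% of all coding genes.

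**Figure D1:**
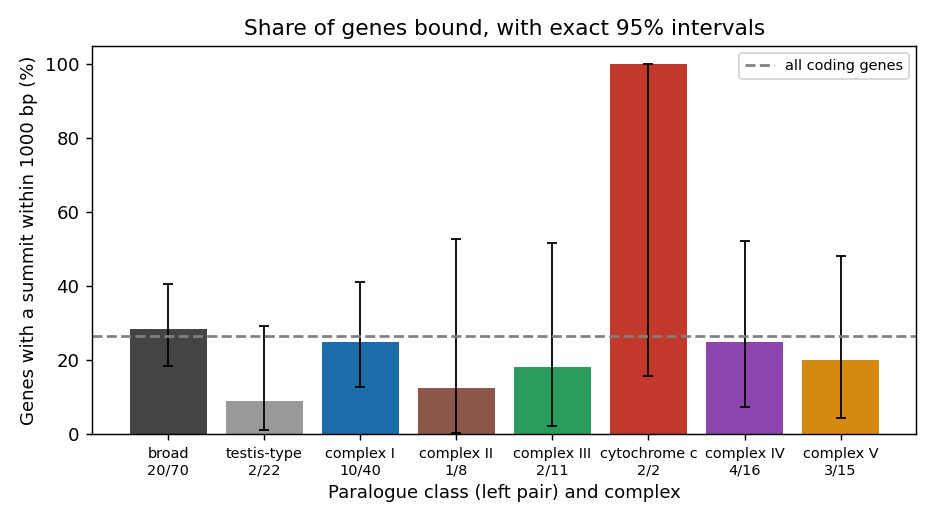
Share of genes with a conservative summit within 1000 bp of a start, in percent, for the broad and testis-type genes and for each complex. Bars carry exact 95% counting intervals, the labels give bound over all genes, and the dashed line is the 26.7% of all coding genes. The testis-type bar, 2 of 22, is the lowest, and the cytochrome c bar stands on 2 genes.

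The strongest peaks of the pathway were at cytochrome c. Peak strength is the score that the deposited lists give, which has no stated unit, and genes are compared by it only within a list. Cyt-c-p (FBgn0284248), the cytochrome c of most tissues, had a score of 765.7 in the series list, 466.4 in the replicate 1 list and 301.9 in the replicate 2 list. Its summit lay in an intron of the gene, 940 bp downstream of the nearest start and close to the limit of 1000 bp. Cyt-c-d (FBgn0086907), the neighbouring cytochrome c gene known for its role in spermatid differentiation, had 950.3 in the series list, 521.0 in replicate 1 and 432.7 in replicate 2. That summit lay in an intron of Cyt-c-d, 375 bp downstream of its start, in a peak spanning chr2L:16716167-16716498. It ranked 138 among all conservative peaks, while the Cyt-c-p peak ranked 212. Of all bound coding genes, 93.4% had a lower score than Cyt-c-p and 95.5% a lower score than Cyt-c-d. The 2 genes lie 297 bp apart on the same strand, each with a summit of its own. The start nearest to the Cyt-c-d summit was that of another coding gene, CG31808, at 141 bp, whereas the Cyt-c-p summit lay near no other coding gene.

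In complex I, the bound core subunits were ND-51, ND-24 and ND-23. ND-24 (FBgn0030853), an iron-sulphur subunit of the NADH-oxidising arm, had scores of 458.4 in the series list, 256.3 in replicate 1 and 199.8 in replicate 2. Its summit lay in its own 5′ UTR, 84 bp downstream of the start. ND-51 (FBgn0031771), the flavin-carrying subunit that takes electrons from NADH, had 362.2, 208.8 and 151.6 in the same lists, with the summit 126 bp upstream. ND-23 (FBgn0017567), an iron-sulphur subunit nearer to the ubiquinone site, had 149.2 in the series list and 79.2 in both replicate lists, 116 bp upstream. The scores of these 3 genes were spread widely, and that of ND-23 was below the median of 180 over all bound coding genes. The other core subunits, ND-75, ND-49, ND-30 and ND-20, had no conservative summit.

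The 7 bound accessory subunits of complex I covered nearly the whole range of scores seen outside cytochrome c. ND-MWFE had the highest, 585.2 in the series list, 365.4 in replicate 1 and 206.9 in replicate 2, at a summit 182 bp upstream of its start and 39 bp from the start of TppII, a peptidase gene. ND-ASHI had 537.5, 289.8 and 248.9 in the same lists, 252 bp upstream. That peak lay in an intron of the divergent gene Fum1, a fumarase of the tricarboxylic acid (TCA) cycle, whose nearest start was 270 bp away, so the same summit counted for both mitochondrial genes. ND-SGDH had 253.3, 137.0 and 111.9 at 36 bp upstream. ND-42 had 225.2, 119.6 and 104.5 at a summit 230 bp upstream, which stood 1 bp from the start of the divergent gene Cchl, the cytochrome c haem lyase that attaches haem to cytochrome c. The remaining 3 lay near or below the coding median of 180. ND-B17 had 180.9, 96.9 and 80.9 at 111 bp upstream, and also a far weaker conservative summit of score 6.9 at 322 bp. ND-MNLL had 177.0, 100.6 and 79.1 at 65 bp upstream. ND-B22 was the weakest, with 93.8 in the series list and 50.4 in replicate 2, at a summit in its own 5′ UTR, 23 bp upstream of an inner start. It was not in the replicate 1 list, and the ranked replicate 1 peak there scored 43.2 with a scaled IDR of 59.

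In complexes II and III the summits stood far from the starts. SdhA, the flavoprotein of succinate dehydrogenase and the 1 bound gene of complex II, had 207.1 in the series list and 91.4 in replicate 2. In the replicate 1 lists, thresholded and ranked, no summit lay within 1000 bp of its start. A replicate 1 summit just beyond that limit would not have been counted. The series summit stood 916 bp upstream and only 115 bp from the start of cer. In complex III, the bound genes were Cyt-c1 and Cyt-c1L, the haem-carrying subunit and its testis-type duplicate. Cyt-c1 (FBgn0035600) had 69.7 in the series list and was in neither thresholded replicate list, with ranked peaks of 45.4 in replicate 1 and 39.7 in replicate 2. Only 4.4% of bound coding genes had a lower score, and the summit, 668 bp upstream, was 151 bp from the start of Klp64D, a kinesin gene. Cyt-c1L (FBgn0039651) had 336.4 in the series list, 188.3 in replicate 1 and 148.6 in replicate 2. Its summit, 670 bp upstream on another arm, was near no other coding gene.

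The bound genes of complex IV encode small nuclear subunits that surround its catalytic core. COX5A scored 197.6 in the series list, 121.6 in replicate 1 and 78.5 in replicate 2, and COX6B scored 167.5, 85.9 and 82.0. COX5B scored 143.5, 88.9 and 55.0, and COX7B scored 132.6, 85.5 and 45.2. The summits at COX6B, COX5B and COX7B were 39, 267 and 117 bp upstream. That at COX5A lay in an intron of COX5A, 145 bp downstream of its outermost start and 95 bp upstream of an inner start. The summits at COX5A and COX5B were nearer to the starts of the divergent genes glo, at 84 bp, and IFT52, at 31 bp.

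In complex V, ATPsynE, a membrane subunit of the Fo part, scored 214.3 in the series list, 127.3 in replicate 1 and 84.8 in replicate 2. That summit was 867 bp downstream of its start and 116 bp from spn-B, and a second conservative summit with a score of 194.4 lay 52 bp downstream. ATPsynCF6, in the peripheral stalk, scored 168.0, 95.3 and 70.0 at 107 bp upstream. ATPsyngamma, the rotating central shaft, scored 112.9, 62.2 and 52.2. Its summit lay in its own 5′ UTR, 216 bp downstream of the outermost start and 78 bp upstream of an inner start. The catalytic subunit gene ATPsynbeta had no peak near a start even in the ranked list. It lies on chromosome 4, where 2 of 80 coding genes were bound (2.5%).

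**Figure D2:**
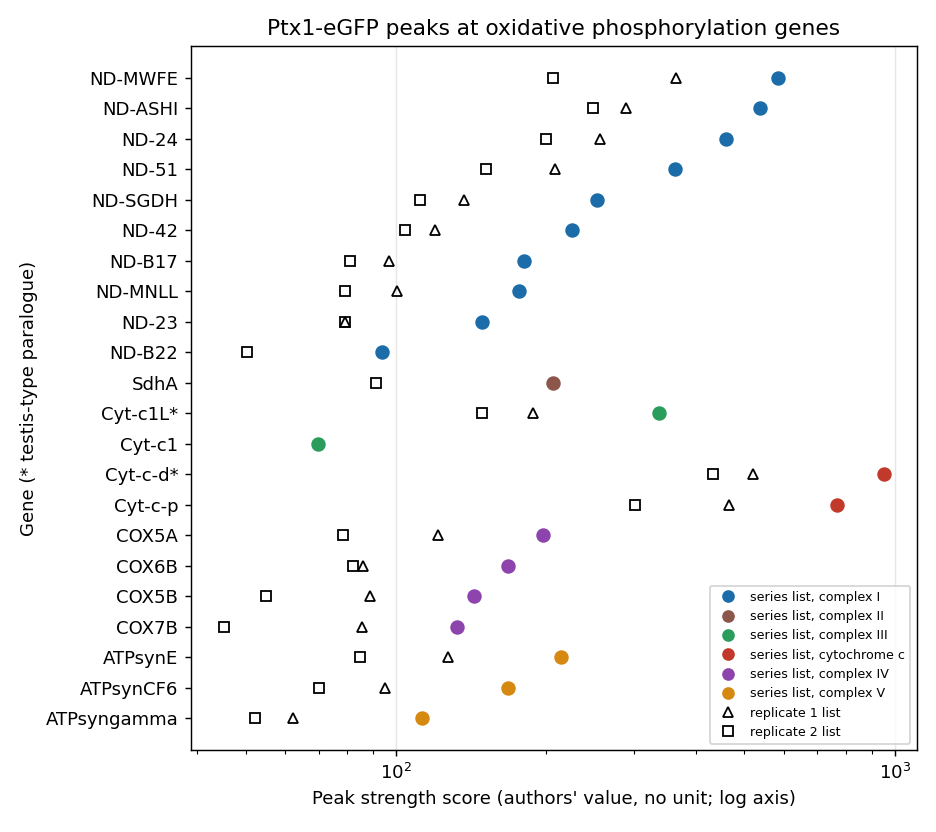
Strength score of the strongest peak near each of the 22 bound genes, on a log axis, in the series list (filled circles, coloured by complex), the replicate 1 list (open triangles) and the replicate 2 list (open squares). Cyt-c-d and Cyt-c-p lead in every list, and ND-B22, SdhA and Cyt-c1 lack 1 or both replicate symbols.

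Over all 22 bound genes the median series score was 202, against 180 over all 3729 bound coding genes. In replicate 1 the medians were 121 for the pathway and 116 for coding genes, and in replicate 2 they were 84.8 and 94.7. The genes thus stood slightly above the coding median in one replicate and below it in the other. At the 19 genes in all of the lists, replicate 1 scores were a median of 1.27 times the replicate 2 scores, with a range of 1.0 to 1.89, against 1.29 over 2704 coding genes. Replicate 1 was the higher at 18 of these 19, and at 2402 of the 2704 coding genes. Each list has its own score scale, so neither the ratio nor this count measures a difference in binding. At these 19 genes, the distance from the strongest summit to its nearest start differed between the replicates by a median of 22 bp. The largest difference was 81 bp, at COX7B, and the median over coding genes was 16 bp.

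Most of the summits lay just upstream of the nearest annotated start, as at other bound genes. Of the 22, 18 were upstream of that start (81.8%, against 84.6% of bound coding genes). Of these 18, COX5A, ATPsyngamma and ND-B22 had the summit inside the gene, before an inner start, which leaves 15 upstream of every start of the gene (68.2%, against 71.3%). Relative to the nearest start, 15 summits lay within 300 bp upstream (68.2%, against 60.2%). The median position was 109 bp upstream of the start for these genes and 149 bp for all bound coding genes. More than 500 bp away were 5 summits (22.7%, against 19.3%), those of Cyt-c-p, SdhA, ATPsynE, Cyt-c1L and Cyt-c1. All of these but ATPsynE belong to complexes II and III and cytochrome c. In the annotation, 13 summits were intergenic, 5 intronic and 4 in a 5′ UTR.

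**Figure D3:**
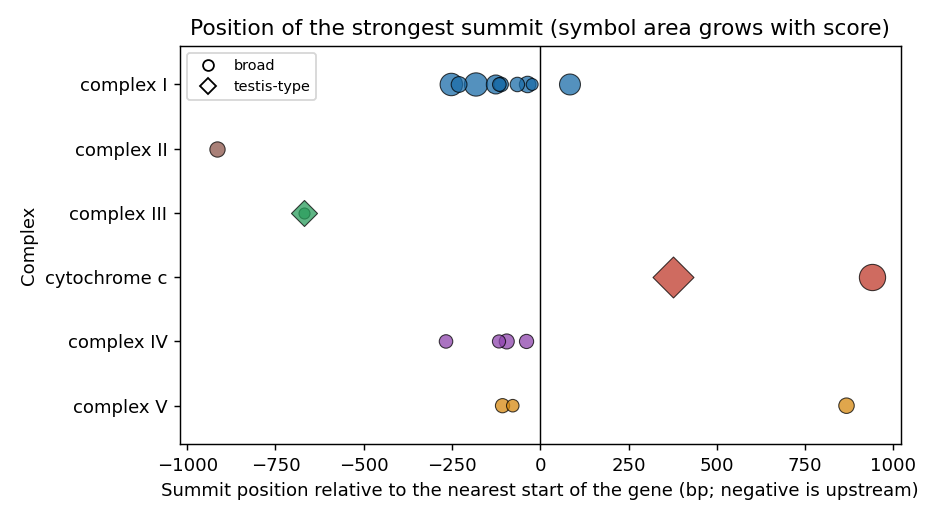
Position of the strongest conservative summit relative to the nearest start of each bound gene, in bp with negative values upstream, by complex. Circles are broad genes, diamonds are testis-type genes, and the symbol area grows with the series score. The complex I and complex IV summits sit within 300 bp of a start, while those of complexes II and III and cytochrome c lie farther out.

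Many of the bound genes shared their summit with a neighbour. The summit was within 1000 bp of another coding gene's start for 18 of the 22 (81.8%, against 60.4% of bound coding genes), all but ND-B17, ND-B22, Cyt-c1L and Cyt-c-p. The member's own start was the nearest coding start at 13 of the 22 (59.1%), against 68.5% of bound coding genes, or 2555 genes that make up 18.3% of all coding genes. At the other 9, the nearest start belonged to TppII, CG13994, Cchl, cer, Klp64D, glo, IFT52, spn-B or CG31808.

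Head-to-head gene pairs were common in the pathway. A coding gene starting on the opposite strand within 1000 bp upstream was found at 45 of the 92 genes (48.9%, against 36.2% of coding genes). Of these 45, 16 were bound (35.6%, against 44.4% of the 5052 coding genes with such a neighbour). Of the 47 others, 6 were bound (12.8%, against 16.7% of 8916). In both classes the coding share lies within the pathway's counting interval, 21.9 to 51.2% with such a neighbour and 4.83 to 25.7% without. The share bound also differed with the number of annotated starts. With 1 start, 9 of 55 were bound (16.4%, against 20.8% of coding genes), and with 2 starts, 12 of 32 (37.5%, against 37.3%). With 3 or more, 1 of 5 was bound (20%, against 56.5%). Here too each coding share lies within the pathway's counting interval. These were 7.77 to 28.8% with 1 start, 21.1 to 56.3% with 2 and 0.505 to 71.6% with 3 or more.

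Broadly expressed and testis-type genes were separated by symbol: 22 genes named as the like copy of another of the 92, among them Cyt-c-d, Cyt-c1L and ND-51L1, were taken as testis-type, and the other 70 as broad. The 70 include COX6AL, COX6AL2, COX6CL and ATPsynepsilonL, whose parents have other symbols, and the assembly factor Sdhaf3. The layout counts below keep this division. Expression of the genes was not measured here. Of the broad genes, 20 of 70 were bound (28.6%, interval 18.4 to 40.6), and of the testis-type genes 2 of 22 (9.09%, interval 1.12 to 29.2), beside the 26.7% of all coding genes. The broad share is close to that of all coding genes. The testis-type share is lower, but its interval includes 26.7% and overlaps that of the broad genes. The 2 bound testis-type genes were Cyt-c-d and Cyt-c1L, which were also among the 7 highest scores of the pathway. The other 20 testis-type genes of complexes I to V had no conservative summit, including all 6 of complex I, which allows a share of up to 45.9%, and all 5 of complex IV, up to 52.2%.

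Gene layout differed between the classes. A head-to-head coding neighbour was present at 42 of 70 broad genes (60.0%) and at 3 of 22 testis-type genes (13.6%). A single annotated start was present at 37 broad genes (52.9%) and at 18 testis-type genes (81.8%), against 73.5% of coding genes. Among genes without a head-to-head neighbour, 4 of 28 broad genes (14.3%) and 2 of 19 testis-type genes (10.5%) were bound, against 16.7% of coding genes. Among genes with one, 16 of 42 broad genes (38.1%) and 0 of 3 testis-type genes were bound, against 44.4% of coding genes with one, and the testis-type count allows a share of up to 70.8%. The part of layout in the difference was not tested.

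The 22 testis-type genes pair with 20 broad parents. Of the parents, 7 were bound (35.0%, beside 26.7% of all coding genes). In 2 pairs, Cyt-c-p with Cyt-c-d and Cyt-c1 with Cyt-c1L, both genes were bound, and in both the testis-type gene had the higher series score. In 6 pairs only the broad parent was: ATPsynCF6, COX5B, ND-24, ND-51 with each of its 2 copies, and SdhA. In no pair was only the testis-type gene bound, and in 14 neither was. COX5B and COX5BL are neighbours on the same strand, with 123 bp between the end of COX5B and the start of COX5BL. Of this pair the summit counted for COX5B only, the nearest summit to a COX5BL start being 1898 bp away. The COX5B summit also counted for IFT52, whose start was the nearer, at 31 bp.

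Of the 70 genes without a conservative summit, 48 had a peak near a start in the ranked list of the replicate pair and 22 had none. The best scaled IDR of these 48 had a median of 111.5, far under the minimum of 830. By complex the medians were 162 at 17 genes of complex I, 99 at 7 of complex II, 87 at 7 of complex III, 69 at 8 of complex IV and 103 at 9 of complex V. Only 2 of the 48 reached 830, COX7AL2 and ATPsynC, and only ND-75 fell between 540, which corresponds to a rate of about 0.05, and 830. No peak of any strength near a start was listed for the pair at the core complex I genes ND-49 and ND-20, at COX4, COX7A and COX8 of complex IV, or at ATPsynbeta and ATPsyndelta of the F1 head of complex V. Among these, ND-49 and ATPsynbeta lie on chromosome 4, with its low share of bound coding genes. For 12 of the 70 the ranked lists of the single replicates had none either.

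The highest ranked peaks that stayed below the threshold were at ND-75 in complex I, with a score of 59.1 and a scaled IDR of 602, and at UQCR-6.4 in complex III, with 47.1 and 435. In complex II the highest was at SdhCL, with 35.4 and 223, in complex IV at COX7C, with 62.2 and 204, and in complex V at ATPsynD, with 33.3 and 200. Around the distance limit, the strongest summits of Cyt-c-p at 940 bp, SdhA at 916 bp and ATPsynE at 867 bp were just inside. The call of ATPsynE does not rest on the limit, as its second summit lay 52 bp from the start. The nearest conservative summits just outside were at UQCR-6.4L, 1046 bp, ATPsynD, 1393 bp, and ND-39, 1552 bp. In all, 7 unbound genes had a conservative summit between the limit and 2000 bp, and 43 had none within 5000 bp.

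**Figure D4:**
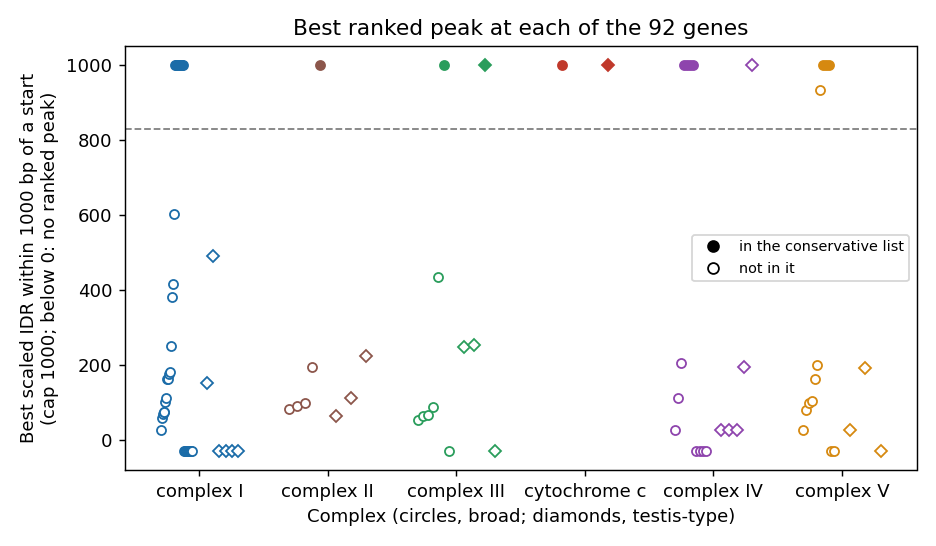
Best scaled IDR of any ranked replicate-pair peak within 1000 bp of a start, for each of the 92 genes by complex. Circles are broad genes, diamonds are testis-type genes, filled symbols are in the conservative list, symbols drawn below 0 have no ranked peak, and the dashed line marks 830. All bound genes sit at the cap of 1000, and nearly all others lie under 540, with COX7AL2, ATPsynC and ND-75 as the exceptions.

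Binding at other genes of energy metabolism was read from 4 lists, leaving out the 92. Of 43 genes matched, 14 were bound (32.6%, beside 26.7% of coding genes). Subunits with other symbols gave 3 of 6, among them blw, a partner subunit of ATPsynbeta, with a score of 595.0. The others were levy of complex IV with 556.5, whose nearest start is that of wmd, and cype of complex IV with 140.2. The start nearest to the cype summit is that of Ncoa6. Assembly factors and regulators gave 2 of 15: CIA30, a complex I assembly factor, with 3092.2, 118 bp upstream but with CG7601 as the nearest gene, and mtSSB, a mitochondrial DNA-binding protein, with 422.7. Genes of the TCA cycle and pyruvate dehydrogenase gave 7 of 13, led by Idh3g with 717.8, Fum1 with 537.5, Pdhb with 430.8 and Ogdh with 277.7. Carriers of the inner membrane and porin gave 2 of 9, Ucp4A with 1002.7, whose nearest start is that of CG8142, and Bmcp with 138.5. The replicate 1 list gave 4 of the 9, with porin at 65.8 and Mpcp1 at 50.4 added, and the replicate 2 list gave 2. The lists are short, and the shares of 50, 13.3, 53.8 and 22.2% rest on a few genes each.

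The sequence around the summits was searched on both strands, within 50 bp either side, for TATCGATA (the DNA replication-related element, DRE), GGTCACAC (the core of core-promoter motif 1), CAGCTG (an E-box), GAGAG (the GAGA element) and the NRG element, with 1 mismatch allowed. The homeodomain sites searched were TAATCC and a related one, TAAGCC. No window held more than 1 of these motifs. The comparison was with the 3245 conservative summits near a coding start. TAATCC was in 1 of the 22 windows, at ND-23 (4.55%, against 4.44%), and TAAGCC in 1, at ND-MWFE (4.55%, against 4.41%). The E-box was in 3, at ND-42, ND-B22 and ATPsynCF6 (13.6%, against 3.94%). Its counting interval, 2.91 to 34.9%, includes 3.94%, so an excess is not shown. GAGAG was in 1, at COX6B (4.55%, against 8.17%). The DRE, motif 1 and the NRG element were in none, against 2.59, 1.26 and 1.11%. The windows shown above for Cyt-c-p, Cyt-c-d, ND-ASHI, ND-51 and Cyt-c1L therefore hold none of the letters searched. The member windows had a median GC content of 28.2% (range 13.9 to 53.5), against 31.7% at all such summits, with ND-23 at 15.8% and Cyt-c1 at 13.9% among the lowest.

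Promoters, taken as the 301 bases from 250 before the outermost start to 50 after it, showed another pattern for motif 1. It was in 6 of 22 bound genes (27.3%) and in 11 of 70 unbound ones (15.7%), against 7.7% of all coding promoters. Their intervals, 10.7 to 50.2% and 8.11 to 26.4%, overlap and lie above 7.7%. By class, motif 1 was in 16 of 70 broad genes (22.9%) and 1 of 22 testis-type genes (4.55%). These intervals, 13.7 to 34.4% and 0.115 to 22.8%, also overlap. TAATCC was in 4 of the 22 bound promoters (18.2%) and in 4 of the 70 unbound ones (5.71%), against 8.76%. The intervals, 5.19 to 40.3% and 1.58 to 14.0%, overlap and both include 8.76%. TAAGCC was in 3 of the bound promoters (13.6%) and 11 of the unbound ones (15.7%), against 11.2%. The GAGA element ran the other way between the classes, in 12 of 70 broad genes (17.1%) and 11 of 22 testis-type genes (50%), against 29.8%. Counting intervals were 9.18 to 28.0% and 28.2 to 71.8%, which come close but do not overlap. The broad one lies below 29.8%, and the testis-type one includes it. Several motifs were compared, and the difference was not tested. TAAGCC was in 11.4% of broad and 27.3% of testis-type genes, against 11.2% of all coding promoters. The E-box was in 27.1 and 9.09%, against 17.7%. For each of these motifs the intervals of the classes overlap. The DRE was in 9.09% of bound and 10% of unbound members, against 9.36%. These are counts of letters in a fixed window and say nothing of which factor is there.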

How the data were processed

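Peak lists of 2 biological replicates of Ptx1-eGFP embryos on dm6 were used. Per the file headers and list names, the authors deposited ranked and thresholded peaks after IDR analysis, separately by replicate and combined. Their aligner and peak caller are not stated in the material at hand. The deposited strength score has no stated unit. The deposited scaled IDR score equalled 125 times the negative log2 of the recorded IDR, capped at 1000, within 1 in 90417 of 90420 ranked replicate-pair peaks on chromosome arms. The conservative list held 6840 peaks, 6824 on arms, the other series list 7439, replicate 1 5480 and replicate 2 4825. Read depth is unknown, so exact 95% intervals cover counting of genes alone.

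Starts were those of Ensembl 115 transcripts, and sequence came from the same assembly. A gene's score is that of its strongest summit within 1000 bp. There is 1 group, so no test between groups was made, and counts and medians stand beside those of all coding genes. The members, the energy lists and the rules were chosen with earlier results of these data known. The rule for named genes took every bound member, members in replicate or other lists only, those just inside and outside the limits, the best unbound member of each complex, up to 4 bound genes per energy list by score, and nearer genes. Unbound genes named as having no ranked peak, and neighbours named otherwise, were chosen after their values were seen. Of 54 entries in the energy lists, 8 symbols matched no gene and 3 were members. Alternatives covered the list, each replicate, the window, the start and the assignment of peaks. Summit calls and the motif search were tested on simulated data. Nothing says whether the biological replicates came from separate cages or collections. Python 3.11.15, numpy 2.4.6, pandas 2.3.3, scipy 1.17.1 and matplotlib 3.10.9 were used.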

Additional observations from a re-analysis of the deposited data

Results flagged for a closer look

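At COX7AL2, a testis-type gene of complex IV, the ranked list of the replicate pair held a peak with a score of 106.6 and a scaled IDR of 1000, 497 bp from a start (chr2L:2197230-2197599), that is absent from the conservative list. It is drawn out because the data outside the conservative list passed the same minimum. In the ranked lists of the single replicates it scored 69.3 in replicate 1, with a scaled IDR of 828, and 44.0 in replicate 2, with 1000, and it was in neither thresholded list. A second such peak, with a score of 70.6, lay 615 bp from a start. At ATPsynC, the ring subunit of the ATP synthase, a peak with a score of 72.2 and a scaled IDR of 935, 146 bp upstream, was likewise absent, with 33.2 in replicate 1 and 37.5 in replicate 2. These belong to 123 of 6947 ranked pair peaks on arms that reached 830 and were not kept, and what removed them is unknown here. At UQCR-6.4L, a testis-type gene of complex III, the other series list held a peak with a score of 77.6, 429 bp upstream, and the replicate 1 list one with 51.3. Its scaled IDR was 253 in the replicate pair and 196 in replicate 2.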

How the results depend on the processing

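Of 63 recomputed counts and medians that answer the comparisons, 54 stayed within 1.5 times the main count or within the replicate spread of the median, and 9 did not. The 22 bound members numbered 14 when each peak was given to its nearest coding start alone, with 13 broad and 1 testis-type gene (15.2%, against 19.1% of coding genes). Among members with 1 start they numbered 9. The 2 testis-type genes numbered 0 with a window of 250 bp, 1 with 500 bp and 4 with 2000 bp (0, 4.55 and 18.2%). Broad genes numbered 15, 17 and 25 (21.4, 24.3 and 35.7%). The share of all coding genes also rose with these windows, at 17.8, 22.8 and 33.1%. The median score of 202 was 84.8 to 121 in the single-replicate lists, whose scores are on their own scale. Leaving out a replicate left 20 to 21 members bound, of which 19 were shared with the main 22 without replicate 2 and 21 without replicate 1. With the stronger part of the peaks alone, 20.7% of members were bound, against 17.8% of coding genes. Chosen after seeing the data, also taking 4 members whose parent has another symbol as testis-type gave 2 of 26, and leaving them and an assembly factor out gave 20 of 65 broad genes. Of 66 recomputed counts by complex, 15 moved, nearly all in complexes with 1 to 3 bound genes, and none of 21 motif shares left its interval. No paired analysis was possible because there is 1 group. The causes were not tested. With no read depth, a gene without a summit is not shown to be unbound.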
